A study of Mus musculus with 6 samples.

Results

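The mitosis and G2/M genes described here are 40 genes that drive or carry out cell division, chosen by symbol, and 38 of them were measured among 30142 genes with 1 symbol each. They were followed in mouse acute myeloid leukaemia (AML) cells on 3 Dnmt3b-KO arrays and 3 control arrays. Dnmt3b encodes an enzyme of de novo DNA methylation. Both groups carried leukaemia induced by the fusion oncogene MLL-AF9, and cells of both were sorted from the marrow of recipient mice with end-stage disease. The Dnmt3b-KO group is labelled as a knockout of Dnmt3b and the control group as littermate control. How the deletion was made, the age of the mice, the sorting markers, and whether each array came from its own mouse are not given in the sources used here. P-values therefore reflect the spread among these 6 samples, and that spread may be technical. Values are log2 expression as the authors deposited them, differences are in those log2 units, and a gene passed the test at an adjusted p under 0.05 in limma, with Benjamini-Hochberg adjustment over all 30142 genes. The forkhead factor Foxm1 lies on a row with several symbols, and Ccnb1, which encodes cyclin B1, has no row listed in the probe table. Neither was analysed here.

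Across all 6 arrays 0 of the 38 genes passed the test, and 32 (84.2%) measured lower in Dnmt3b-KO than in control on average, as did 51.2% of all genes. That lower average lay with Dnmt3b-KO replicate 3, on which 28 of 38 (73.7%) were lower by over 0.5 than the mean of Dnmt3b-KO replicates 1 and 2, where 11.9% of all genes were. With that array left out, the median difference over the 38 genes was -0.01 and 1 gene passed, the spindle pole kinase Aurka, which fell by 0.33 in Dnmt3b-KO. That is 2.63% of the members, near the 1.69% of all genes that passed.

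As background, entry into mitosis is set off by the kinase Cdk1 bound to cyclin B, which Cdc25 phosphatases switch on, and exit follows when the anaphase-promoting complex (APC/C) marks cyclin B and securin for destruction. The spindle checkpoint holds the APC/C back until every chromosome is attached to microtubules. Most genes of this phase are transcribed late in the cycle, with the MuvB complex, B-MYB and FOXM1 acting at a promoter element called the CHR and NF-Y acting at CCAAT boxes. Their RNA level in a bulk sample therefore follows both the share of cells that are dividing and the RNA of each such cell, and these cannot be told apart here.

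Dnmt3b-KO replicate 3 stood apart before any mitotic gene was considered. It correlated with the other 5 arrays at 0.981 to 0.982 across genes, where those 5 correlated with each other at 0.998 to 0.999. Eif2s3y, a gene of the Y chromosome, measured 8.26 on it and at most 4.54 on the other 5 arrays. Xist, a gene of the X chromosome, measured 15.44 on it and 16.66 to 16.79 on the other 5 arrays. On that array both genes lay above the median gene of 4.79. The source of the Y chromosome RNA was not tested. The targeted gene Dnmt3b measured 6.47, 6.63 and 5.96 in Dnmt3b-KO against 6.76, 6.83 and 6.78 in control, a difference of -0.44 ± 0.17 (SE) that did not pass (limma, adjusted p = 0.78). The groups did not overlap, but which exons were deleted is not given, so the level is a weak check of the labels. Of 11 measured markers of MLL-AF9 leukaemia, 10 lay above the median gene, and Flt3 did not. None of 7 T cell or 6 NK cell markers did. Other lists did have markers above it: 11 of 11 neutrophil, 11 of 14 macrophage and 8 of 10 mast cell, basophil and eosinophil markers. So did 3 of 6 erythroid, 2 of 6 B cell and 2 of 8 stromal and endothelial markers. These levels are means over all 6 arrays, Dnmt3b-KO replicate 3 included. Array medians lay between 4.75 and 4.85, and precision is limited by having 3 arrays a group. The comparisons below are given with and without Dnmt3b-KO replicate 3.

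Promoter sequences from RefSeq (GRCm38.p6) were available for 33 of the 40 genes, as windows from 250 bases before the gene start to 50 after it. The letters TTTGAA, the core of the CHR, stood on either strand in 25 of 33 (75.8%), where 20.2% of 27025 genes had them. The letters CCAAT stood in 26 of 33 (78.8%), against 41.1% of all genes, and 22 of 33 (66.7%) had both, against 7.97%. The variant TTTAAA stood in 9 of 33 (27.3%), against 14.9%. None of the 3 strings was found in the windows of Mad2l1, Nuf2 and Nusap1. A gene counts where any of its windows holds the letters, matches of different strings may share bases at their ends, and a match is only a match of letters. The 2 mitotic kinases with the smallest p-values over 5 arrays, Aurka (chr2:172370546-172370680, minus strand) and Plk1 (chr7:122159325-122159459, plus strand), are shown first because the comparison turns on them. Each stretch runs 5′ to 3′ from 110 bases before the start to 25 after it, and capitals mark the 3 strings or their reverse complements.
Aurka: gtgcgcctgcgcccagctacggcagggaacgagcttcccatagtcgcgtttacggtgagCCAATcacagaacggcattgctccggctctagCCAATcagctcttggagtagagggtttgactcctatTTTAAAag
Plk1: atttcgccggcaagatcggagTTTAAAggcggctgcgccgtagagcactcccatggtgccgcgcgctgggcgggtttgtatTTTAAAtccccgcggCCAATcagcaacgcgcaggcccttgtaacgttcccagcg
Aurka has 2 CCAAT matches and a TTTAAA near the start, and Plk1 has 2 TTTAAA matches and 1 CCAAT. Both also have a TTTGAA just past the stretch shown, beginning at base 33 of the gene in Aurka and base 31 in Plk1. The next 4 belong to genes that were among the lowest on Dnmt3b-KO replicate 3 or, for Cdc20, carry the pattern of a textbook G2/M promoter: Ttk (chr9:83834579-83834713, plus strand), Ncapd2 (chr6:125191562-125191696, minus strand), Nusap1 (chr2:119618188-119618322, plus strand) and Cdc20 (chr4:118437319-118437453, minus strand).
Ttk: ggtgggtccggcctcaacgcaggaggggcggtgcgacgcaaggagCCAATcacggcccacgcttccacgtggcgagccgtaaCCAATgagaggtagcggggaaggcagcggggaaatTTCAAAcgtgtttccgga
Ncapd2: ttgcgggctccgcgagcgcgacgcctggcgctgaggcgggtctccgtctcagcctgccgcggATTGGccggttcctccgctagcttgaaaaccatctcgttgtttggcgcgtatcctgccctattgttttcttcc
Nusap1: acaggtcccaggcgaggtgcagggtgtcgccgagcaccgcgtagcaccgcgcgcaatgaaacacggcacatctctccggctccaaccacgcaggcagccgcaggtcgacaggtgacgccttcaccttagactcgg
Cdc20: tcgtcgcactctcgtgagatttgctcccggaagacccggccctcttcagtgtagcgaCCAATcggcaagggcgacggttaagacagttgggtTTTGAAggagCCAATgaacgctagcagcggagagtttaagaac
Cdc20 and Ttk have 2 CCAAT matches and 1 TTTGAA each, on one strand or the other. Nusap1 has no match, and Ncapd2 has 1 CCAAT match in the stretch shown, with a TTTGAA upstream of it at -123. The last pair belongs to the gene closest to replicates 1 and 2 on that array and to the 1 gene higher on it: Kif23 (chr9:61946775-61946909, minus strand) and Cdc25b (chr2:131186838-131186972, plus strand).
Kif23: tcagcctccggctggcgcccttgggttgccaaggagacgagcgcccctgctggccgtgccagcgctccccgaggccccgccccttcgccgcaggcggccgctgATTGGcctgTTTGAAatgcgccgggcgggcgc
Cdc25b: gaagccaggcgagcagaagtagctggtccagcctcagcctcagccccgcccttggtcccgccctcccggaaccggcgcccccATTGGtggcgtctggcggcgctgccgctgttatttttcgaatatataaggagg
Kif23 has a TTTGAA and a CCAAT match close together at the start, while Cdc25b has a CCAAT match alone.

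**Figure D1:**
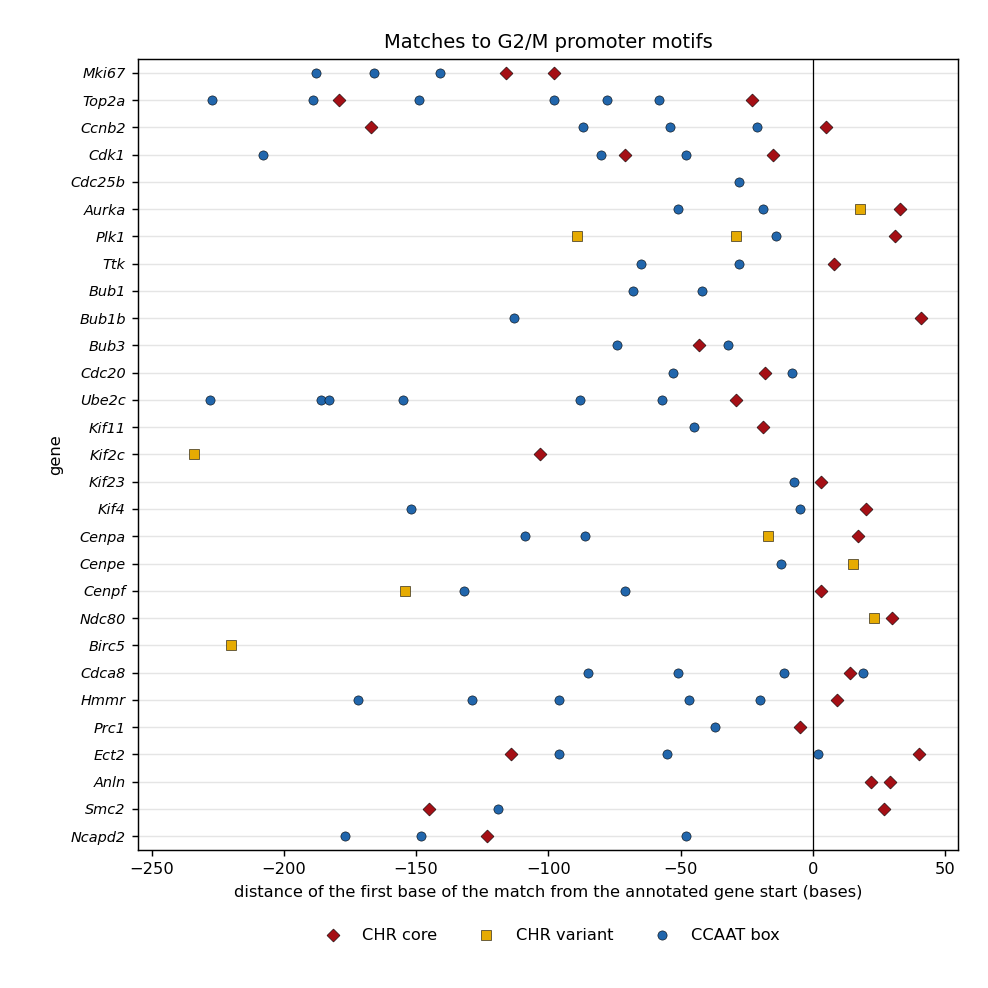
Positions of matches to the CHR core TTTGAA, its variant and the CCAAT box on either strand in the first listed promoter of the 29 measured genes with at least 1 match, with distance from the gene start in bases on the horizontal axis. Matches of TTTGAA and CCAAT crowd towards the start, and Cdc25b has a CCAAT match without a TTTGAA.

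The comparison of Dnmt3b-KO with control over all 6 arrays asks whether loss of Dnmt3b goes with another level of the division machinery. In limma, 0 of 38 genes passed, where 0.0% of all genes passed, and adjusted p ran from 0.68 to 0.995. At an unadjusted p under 0.05, Aurka alone was lower, against 3.58% of all genes, and 0 were higher, against 2.79%. The difference was below 0 for 32 of 38 genes (84.2%), compared with 51.2% of all genes, and its median was -0.29, compared with -0.0036 over all genes. In 7 genes every Dnmt3b-KO value lay below every control value (18.4%, against 8.21% of all genes), namely Top2a, Aurka, Plk1, Bub3, Ube2c, Kif20a and Hmmr. Ndc80 was the 1 gene with the reverse order, where 6.68% of all genes had it. With Dnmt3b-KO replicate 3 left out, the median was -0.01 and 20 of 38 were below 0. The same 7 genes then lay below every control value, and their share of 18.4% was near the 17.4% of all genes.

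**Figure D2:**
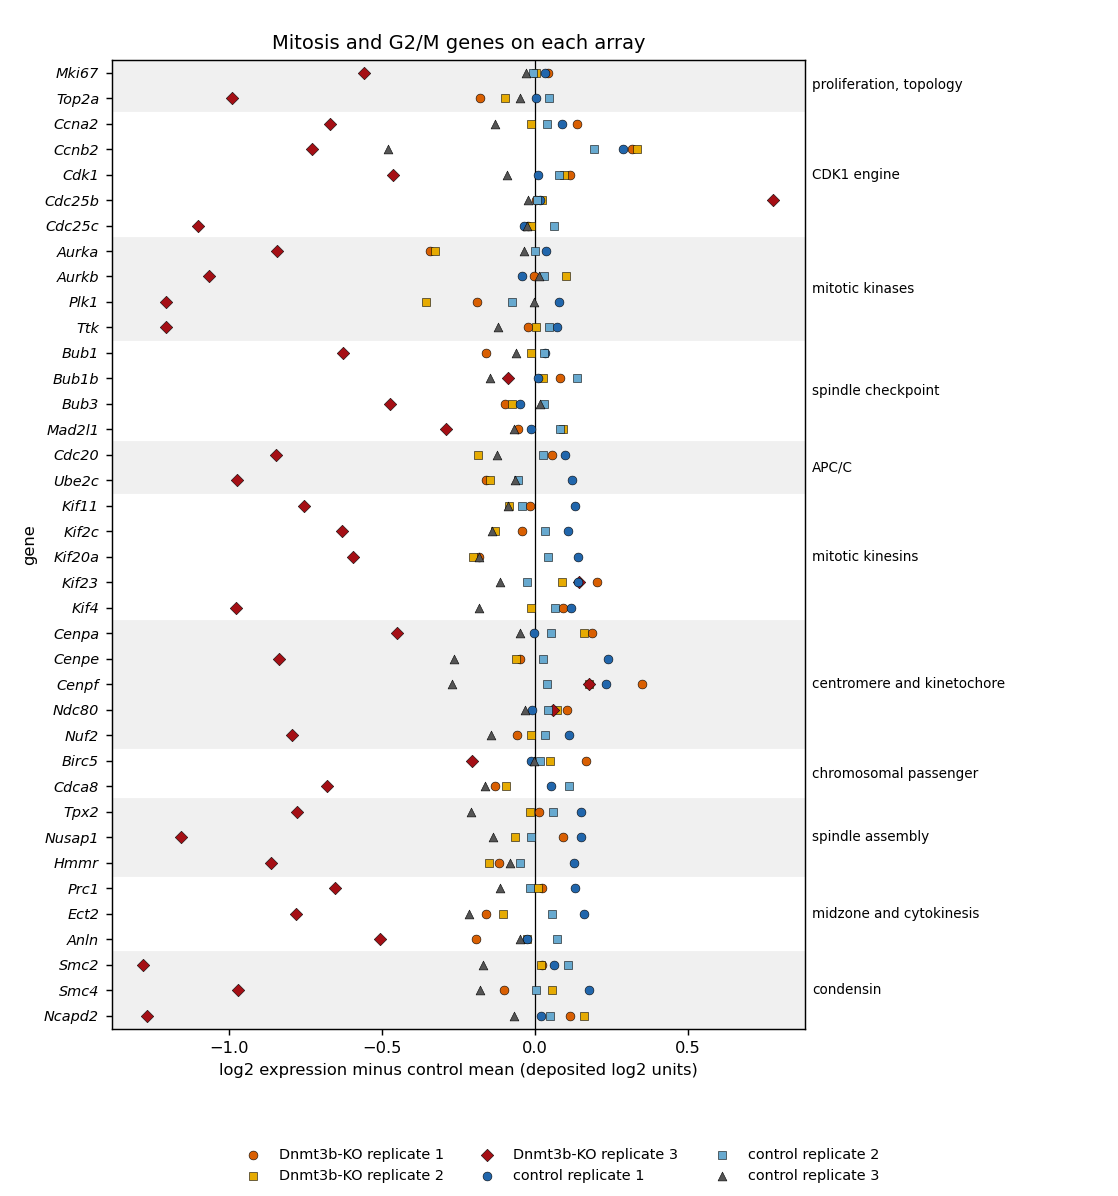
Log2 expression of the 38 measured genes on each of the 6 arrays, minus the control mean of that gene, in deposited log2 units and grouped by role, with 1 symbol per array. Dnmt3b-KO replicate 3 (diamonds) lies to the left of the other 5 arrays in 33 of 38 genes and to the right in Cdc25b.

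The comparison of Dnmt3b-KO replicates 1 and 2 with the 3 control arrays had the tighter spread, with a median SE of 0.08 against 0.21 over 6 arrays. One member passed, Aurka, where 1.69% of all genes passed (0.75% lower and 0.939% higher). At an unadjusted p under 0.05, Aurka and Plk1 were lower (7.73% of all genes) and Cenpa was higher (7.74%), so at this level the shares of members were no larger than those of all genes. The median difference was -0.01 for the members and -0.01 for all genes, and 20 of 38 members (52.6%) lay below 0, as did 53.7% of all genes. Both Dnmt3b-KO arrays lay below all controls in 7 genes (17.4% of all genes) and above all controls in 6, Ccnb2, Cdk1, Cenpa, Ndc80, Birc5 and Ncapd2 (15.1% of all genes). The 95% interval of the difference stayed within 0.5 of 0 for 36 of 38 genes. The exceptions were Ccnb2, with an interval of -0.21 to 0.87, and Cenpf, with -0.10 to 0.62. None of the 38 was lower than control by over 0.5, where 1.16% of all genes were.

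**Figure D3:**
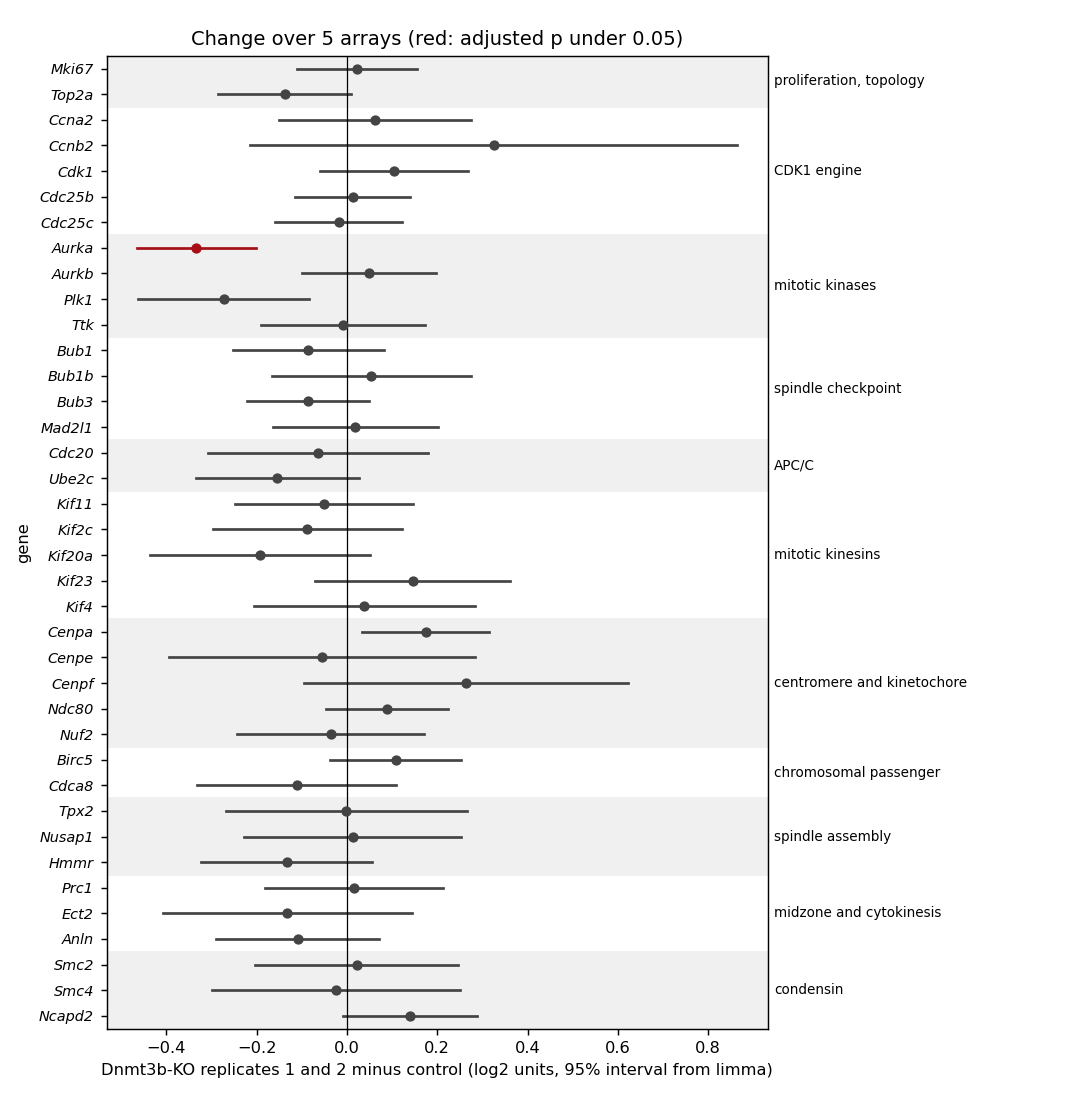
Difference between Dnmt3b-KO replicates 1 and 2 and control for each of the 38 genes in log2 units, with the 95% interval from limma as a bar, grouped by role. The interval of Aurka runs from -0.47 to -0.20, and the intervals other than those of Aurka, Plk1 and Cenpa cross 0.

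The mitotic kinases held the 1 difference between the genotypes that passed the test. Aurka encodes Aurora A, which matures centrosomes and builds the spindle poles, and it measured 11.73, 11.74 and 11.23 in Dnmt3b-KO against 12.10, 12.07 and 12.03 in control. Every Dnmt3b-KO array was under every control array, and the controls were within 0.07 of each other. Without Dnmt3b-KO replicate 3 Aurka fell by 0.33 (SE 0.05), with an adjusted p of 0.047 in limma. Over 6 arrays the difference was -0.50 ± 0.15 (SE), adjusted p = 0.68. The call over 5 arrays was lost when any 1 of the 5 arrays was left out, with limma's adjusted p then between 0.099 and 0.26, although the difference stayed between -0.35 and -0.32. Immediate early genes, which respond to sample handling, lay higher in the same group. Their mean level was 9.33, 9.83 and 9.71 in Dnmt3b-KO against 8.68, 8.86 and 9.18 in control. In 7 of 11 every Dnmt3b-KO value lay above every control value, where 6.68% of all genes had that order, and 0 passed the test. The part of immediate early genes in the Aurka difference was not tested. Markers of mast cells, basophils and eosinophils lay lower in that group, with a mean level of 7.15, 7.37 and 6.12 in Dnmt3b-KO against 8.25, 8.22 and 8.26 in control. Over 5 arrays 6 of 10 passed as lower and 1 as higher (limma), against 0.75% and 0.939% of all genes. The median of the 10 was -0.69, and their part was not tested either.

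Plk1, the Polo kinase that acts from mitotic entry to cytokinesis, measured 13.43, 13.27 and 12.42 in Dnmt3b-KO and 13.70, 13.55 and 13.62 in control. The groups did not overlap. Its difference over 5 arrays was -0.27 ± 0.08 (SE) and did not pass (limma, adjusted p = 0.17), and over 6 arrays it was -0.58 ± 0.27 (adjusted p = 0.82). Aurkb, the Aurora kinase of the chromosomal passenger complex, measured 10.97, 11.07 and 9.91 in Dnmt3b-KO and 10.93, 11.00 and 10.99 in control. Ttk, the checkpoint kinase also called Mps1, had 11.32, 11.35 and 10.14 in Dnmt3b-KO and 11.41, 11.39 and 11.22 in control. For both, Dnmt3b-KO replicates 1 and 2 stood among or beside the controls and replicate 3 stood over 1 unit below them. Over 5 arrays the Aurora kinases differed from control by -0.33 ± 0.05 (SE) for Aurka and 0.05 ± 0.06 for Aurkb, and the contrast between the 2 genes was not tested.

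Mki67, the gene of the Ki-67 antigen that marks cycling cells, and Top2a, the topoisomerase that untangles sister chromatids, are the usual markers of proliferation. Mki67 measured 16.47, 16.43 and 15.86 in Dnmt3b-KO and 16.46, 16.42 and 16.40 in control. The difference over 5 arrays was 0.02 ± 0.05 (SE), with a 95% interval of -0.11 to 0.16 (limma, adjusted p = 0.91). Apart from Dnmt3b-KO replicate 3, the arrays were nearly level for this gene. Top2a had 14.52, 14.61 and 13.71 in Dnmt3b-KO and 14.71, 14.75 and 14.65 in control, without overlap. Its difference over 5 arrays was -0.14 ± 0.06 (SE) and did not pass (adjusted p = 0.36).

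Among the genes of the Cdk1 engine, Cdk1 itself measured 11.19, 11.17 and 10.61 in Dnmt3b-KO and 11.09, 11.16 and 10.99 in control. Dnmt3b-KO replicates 1 and 2 were just above the highest control, by less than the control arrays differed among themselves, and the difference over 5 arrays was 0.10 ± 0.07 (SE; limma, adjusted p = 0.56). Ccnb2, which encodes cyclin B2, gave 14.17, 14.19 and 13.13 in Dnmt3b-KO and 14.14, 14.05 and 13.38 in control. Here control replicate 3 was also low, and the control SD of 0.42 was the largest of the 38 genes. Ccna2, the cyclin A2 gene, ran from 12.90 to 13.71 in Dnmt3b-KO and from 13.45 to 13.66 in control, with its lowest value on Dnmt3b-KO replicate 3. The phosphatase genes Cdc25b and Cdc25c parted on that array. Cdc25b had 7.18, 7.20 and 7.96 in Dnmt3b-KO and 7.20, 7.19 and 7.16 in control, so that 5 arrays lay within 0.05 of each other and 1 above them. Cdc25c had 8.54, 8.55 and 7.46 in Dnmt3b-KO and 8.53, 8.62 and 8.53 in control, so that the same array was lowest. Cdc25b was the 1 member higher on Dnmt3b-KO replicate 3 than on replicates 1 and 2.

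The spindle checkpoint genes Bub1, Bub1b, Bub3 and Mad2l1 encode the proteins that watch kinetochore attachment and restrain Cdc20. Bub1 measured 12.23, 12.38 and 11.76 in Dnmt3b-KO and 12.42, 12.42 and 12.33 in control, and its difference over 5 arrays was -0.09 ± 0.07 (SE; limma, adjusted p = 0.65). Bub1b, which encodes BubR1, ran from 11.77 to 11.94 in Dnmt3b-KO and from 11.71 to 12.00 in control, and the groups overlapped fully. Bub3 ran from 15.10 to 15.50 in Dnmt3b-KO and from 15.53 to 15.61 in control. Bub3 was below every control on all 3 Dnmt3b-KO arrays, by a small margin on replicates 1 and 2. Mad2l1, the gene of Mad2, ran from 11.78 to 12.16 in Dnmt3b-KO and from 12.00 to 12.15 in control. As a role the checkpoint had the smallest median drop on Dnmt3b-KO replicate 3, -0.35, and 1 of 4 genes was lower there by over 0.5.

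Cdc20 activates the APC/C and Ube2c is the conjugating enzyme that hands it ubiquitin. Cdc20 gave 9.88, 9.64 and 8.98 in Dnmt3b-KO and 9.92, 9.85 and 9.70 in control. Dnmt3b-KO replicates 1 and 2 were 0.24 apart, the widest gap between them among the 38 genes. Ube2c gave 13.61, 13.62 and 12.80 in Dnmt3b-KO and 13.89, 13.72 and 13.71 in control, a separation of the groups that did not pass over 5 arrays (-0.15 ± 0.08 SE; limma, adjusted p = 0.41).

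The mitotic kinesins are motors of the spindle. Kif11, the plus-end motor Eg5 that pushes the poles apart, measured 14.88, 14.81 and 14.14 in Dnmt3b-KO and 15.03, 14.85 and 14.80 in control. Kif20a, a motor of the central spindle, measured 12.07, 12.06 and 11.66 in Dnmt3b-KO and 12.40, 12.30 and 12.08 in control, so that the nearest values of the groups almost touched. Its difference over 6 arrays was -0.33 ± 0.15 (SE; limma, adjusted p = 0.82) and over 5 arrays -0.19 ± 0.10 (adjusted p = 0.45). Kif23, the motor part of centralspindlin that is needed for abscission, had 11.51, 11.39 and 11.45 in Dnmt3b-KO and 11.44, 11.28 and 11.19 in control. Kif23 was the kinesin in which Dnmt3b-KO replicate 3 lay between the other Dnmt3b-KO arrays, and the difference over 6 arrays was 0.15 ± 0.08 (SE; adjusted p = 0.83). Kif2c, the microtubule-depolymerising motor MCAK, and the chromosome-arm motor Kif4 differed by -0.09 and 0.04 over 5 arrays. On Dnmt3b-KO replicate 3 the differences from replicates 1 and 2 were -0.54 for Kif2c and -1.02 for Kif4.

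Centromere and kinetochore genes tie chromosomes to the spindle. Cenpa encodes the histone H3 variant that marks centromeres, and it measured 10.40, 10.37 and 9.76 in Dnmt3b-KO and 10.21, 10.26 and 10.16 in control. Dnmt3b-KO replicates 1 and 2 were above all controls and replicate 3 was below them. The difference over 5 arrays was 0.17 ± 0.06 (SE) and did not pass (limma, adjusted p = 0.22), and over 6 arrays it was -0.03 ± 0.18. Cenpf, a large protein of the outer kinetochore, measured 11.22, 11.05 and 11.05 in Dnmt3b-KO and 11.10, 10.91 and 10.60 in control, so its control arrays spread more than its Dnmt3b-KO arrays. Its difference over 6 arrays was 0.23 ± 0.14 (SE; adjusted p = 0.83). Ndc80 and Nuf2 encode partners in the same microtubule-binding complex. Ndc80 had 11.56, 11.52 and 11.51 in Dnmt3b-KO and 11.44, 11.50 and 11.42 in control. Nuf2 had 11.98, 12.03 and 11.25 in Dnmt3b-KO and 12.15, 12.08 and 11.90 in control. On Dnmt3b-KO replicate 3 the partners parted, with Ndc80 at -0.03 and Nuf2 at -0.76 from the mean of replicates 1 and 2. Cenpe, a kinesin of the kinetochore, differed by -0.05 ± 0.14 (SE) over 5 arrays and by -0.78 on Dnmt3b-KO replicate 3.

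Birc5 encodes survivin and Cdca8 borealin, both subunits of the chromosomal passenger complex that carries Aurora B. Birc5 measured 6.99, 6.87 and 6.62 in Dnmt3b-KO and 6.81, 6.84 and 6.82 in control, and its control SD of 0.02 was the smallest of the 38. Cdca8 ran from 9.29 to 9.88 in Dnmt3b-KO and from 9.81 to 10.08 in control. Neither passed over 5 arrays (limma, adjusted p = 0.48 for Birc5 and 0.66 for Cdca8).

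Tpx2, Nusap1 and Hmmr encode proteins that nucleate and bundle spindle microtubules, Tpx2 being also the activator of Aurora A. Tpx2 measured 13.27, 13.23 and 12.47 in Dnmt3b-KO and 13.40, 13.31 and 13.04 in control. Its difference over 5 arrays was -0.0011 ± 0.11 (SE), with a 95% interval of -0.27 to 0.27 (limma, adjusted p = 0.998). Nusap1 gave 11.24, 11.08 and 9.99 in Dnmt3b-KO and 11.29, 11.13 and 11.01 in control. Hmmr gave 12.10, 12.06 and 11.35 in Dnmt3b-KO and 12.34, 12.17 and 12.13 in control. The Hmmr groups did not overlap, and its difference over 5 arrays was -0.13 ± 0.08 (SE; adjusted p = 0.51).

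Prc1 crosslinks the midzone microtubules, Ect2 switches on RhoA for the contractile ring, and Anln scaffolds that ring. Prc1 measured 12.58, 12.56 and 11.90 in Dnmt3b-KO and 12.69, 12.54 and 12.44 in control. Ect2 ran from 12.61 to 13.29 in Dnmt3b-KO and from 13.18 to 13.56 in control, and Anln from 11.38 to 11.86 in Dnmt3b-KO and from 11.84 to 11.95 in control. None of the 3 passed over 5 arrays, and all 3 had their lowest value on Dnmt3b-KO replicate 3.

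Smc2, Smc4 and Ncapd2 encode subunits of condensin, the ring that compacts mitotic chromosomes. Smc2 measured 12.59, 12.59 and 11.29 in Dnmt3b-KO and 12.63, 12.68 and 12.40 in control. Smc4 measured 15.44, 15.60 and 14.57 in Dnmt3b-KO and 15.72, 15.54 and 15.36 in control. Ncapd2 measured 13.06, 13.11 and 11.68 in Dnmt3b-KO and 12.97, 13.00 and 12.88 in control. In all 3, replicates 1 and 2 of Dnmt3b-KO stood within or close to the control range and replicate 3 stood 0.79 to 1.20 below the lowest other array. Over 5 arrays Ncapd2 differed by 0.14 ± 0.06 (SE; limma, adjusted p = 0.36), Smc2 by 0.02 ± 0.09 and Smc4 by -0.02 ± 0.11.

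Dnmt3b-KO replicate 3 is 1 array, so its difference from Dnmt3b-KO replicates 1 and 2 is described without a test. It was lower in 37 of 38 genes, where 46.5% of all genes were lower, and by over 0.5 in 28 of 38 (73.7%), where 11.9% of all genes were. Since all 38 lay above the median gene, the share among genes above it, 23.3%, stands nearer to them. The median difference was -0.69, with the middle of the 38 between -0.91 and -0.43, and over all genes the median was 0.02. It was lower by over 0.3 in 33 genes (19.5% of all genes) and by over 1 in 8 genes (2.94% of all genes): Ncapd2 at -1.41, Smc2 at -1.30, Ttk at -1.20, Nusap1 at -1.17, Aurkb at -1.11, Cdc25c at -1.08, Ccnb2 at -1.05 and Kif4 at -1.02. Cdc25b at 0.77 was the 1 gene higher by over 0.5 (9.03% of all genes). Set against the control mean, 28 of 38 were lower by over 0.5 (11.4% of all genes), with a median of -0.74. Set against the other 5 arrays the count was 29 (11.5% of all genes), and against control replicates 1 and 2 it was 29 (11.6%). The array was the lowest of the 6 in 33 of 38 genes, compared with 31.3% of all genes and 51.5% of genes above the median. When quantile normalization was repeated, 35 of 38 were lower and 20 by over 0.5 (10.9% of all genes).

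**Figure D4:**
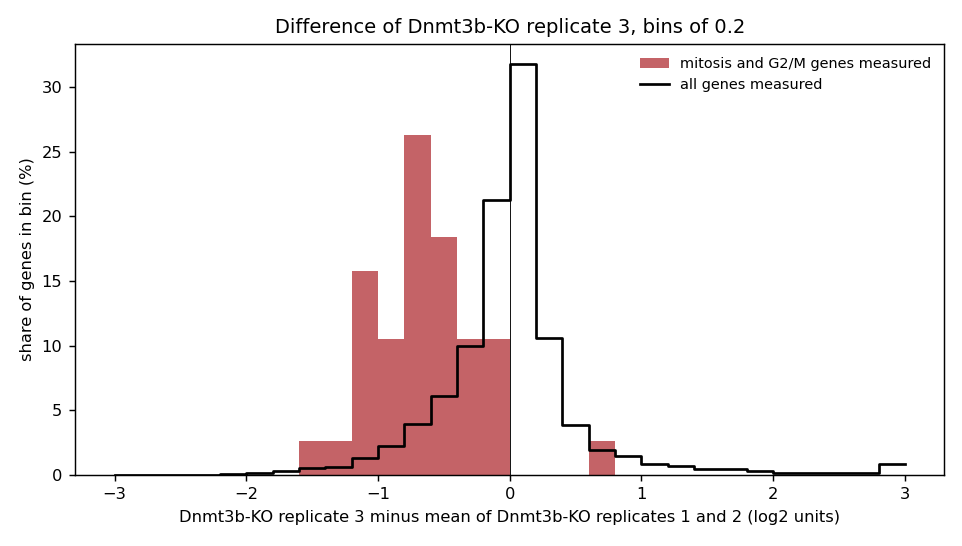
Share of the 38 genes and of all 30142 genes in bins of the difference between Dnmt3b-KO replicate 3 and the mean of Dnmt3b-KO replicates 1 and 2, in log2 units, with differences beyond 3 drawn in the outermost bins. The members sit mostly between -1.41 and 0, to the left of the peak of all genes near 0.

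The roles differed in size on that array. The median difference was -1.30 for condensin, -1.02 for the mitotic kinases, -0.80 for Cdc20 and Ube2c, -0.78 for spindle assembly, -0.73 for the Cdk1 engine and -0.72 for Mki67 and Top2a. It was -0.65 for midzone and cytokinesis, -0.62 for centromere and kinetochore, -0.54 for kinesins, -0.44 for the passenger genes and -0.35 for the checkpoint. The genes closest to replicates 1 and 2 were Kif23 at -0.0017, Ndc80 at -0.03, Cenpf at -0.09 and Bub1b at -0.14. Just inside the size of 0.5 was Aurka at -0.51, and just outside it was Kif20a at -0.40. Genes with a TTTGAA in the promoter had a median of -0.65 (25 genes) and those without it -0.54 (7 genes). Genes with CCAAT had -0.67 (25 genes) and those without it -0.40 (7 genes). Splits by TTTAAA and by none of the 3 strings ran the other way. Genes with TTTAAA had -0.53 (8 genes) and those without it -0.69 (24 genes). Genes with none of the 3 strings had -0.76 (3 genes) and the rest -0.62 (29 genes). In shorter windows, from 100 bases before the start to 50 after it, this last split turned round, at -0.54 (5 genes) and -0.65 (27 genes). The TTTAAA split there was small, at -0.62 (5 genes) with it and -0.65 (27 genes) without it. The other 2 splits kept their direction there, at -0.65 and -0.54 for TTTGAA and -0.69 and -0.47 for CCAAT. Ranges overlapped widely in each of these splits.

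Markers of other cells moved with the low mitotic values on that array. The mean level of 14 macrophage markers was 7.43, 7.23 and 10.58 in Dnmt3b-KO against 7.25, 7.26 and 7.41 in control. On Dnmt3b-KO replicate 3, 10 of 14 were higher than replicates 1 and 2 by over 0.5 (9.03% of all genes). By the same size 1, Vcam1, was lower (11.9%). The median difference of the 14 was 3.56. Most rose strongly, though the defining markers did not move as 1 block. Gpnmb measured 16.16 on that array and at most 5.55 on the others, Csf1r 12.97 and at most 8.64, and Mrc1 12.05 and at most 4.63. Adgre1, which encodes a macrophage surface antigen, measured 14.44 on that array and at most 11.74 on the others. There Cd163 at 4.89 and C1qa at 4.84 lay close to the median gene of 4.79. Of 11 leukaemia markers 7 were lower there by over 0.5 (11.9% of all genes). By the same size 2 were higher (9.03%), Mef2c at 2.52 and Itgam at 1.49 from replicates 1 and 2. The mean level of the 11 was 10.70, 10.62 and 10.09 in Dnmt3b-KO against 10.82, 10.85 and 10.88 in control. The part of these markers in the mitotic values was not tested.

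Control replicate 3 lay low for the same genes, to a smaller degree. It was the lowest control in 33 of 38 genes, where 32.2% of all genes had their lowest control value there. Its difference from control replicates 1 and 2 had a median of -0.15 and ran from -0.72 in Ccnb2 to 0.03 in Bub3. Dnmt3b-KO replicates 1 and 2 differed from each other by -0.17 in Anln to 0.24 in Cdc20. The balance over 5 arrays depended on which control arrays were used. With all controls 20 of 38 differences were below 0. That count was 27 without control replicate 3, 17 without control replicate 2 and 14 without control replicate 1.

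Neighbouring genes of division, in 6 lists that hold none of the 38, gave 120 measured of 127. In limma 0 of the 120 passed over 6 arrays (0.0% of all genes) and 0 over 5 arrays (1.69%). At an unadjusted p under 0.05, 3 were lower and 1 higher over 6 arrays (3.58% and 2.79% of all genes). Over 5 arrays 9 were lower and 7 higher (7.73% and 7.74% of all genes). The median difference of the 120 over 5 arrays was 0.01. On Dnmt3b-KO replicate 3, 68 of 120 were lower than replicates 1 and 2 by over 0.5 (11.9% of all genes). By the same size 1, E2f5, was higher (9.03%). The medians there were -0.74 for 32 other G2/M regulators, -0.76 for 9 other kinesins, -0.72 for 30 other centromere and kinetochore genes, -0.53 for 18 condensin and cohesin genes and -0.52 for 14 DREAM, MuvB and NF-Y genes. For 17 APC/C subunits and partners the median was -0.13, and 3 of 17 were lower by over 0.5 (11.9% of all genes). The smallest p over 5 arrays in each direction belonged to E2f4, an E2F factor of the DREAM complex, at -0.41 ± 0.08 (SE; limma, adjusted p = 0.08), and to Pkmyt1, the Myt1 kinase that inhibits Cdk1, at 0.31 ± 0.06 (adjusted p = 0.06). Over 6 arrays the differences were -0.49 ± 0.11 (SE) for E2f4 and -0.08 ± 0.33 for Pkmyt1. Pkmyt1 measured 6.72 on Dnmt3b-KO replicate 3, below the controls at 7.54 to 7.62.

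Genes of DNA synthesis and of cell cycle exit give the frame around mitosis. Of 28 S phase genes 0 passed in either comparison (limma). On Dnmt3b-KO replicate 3, 17 of the 28 were lower by over 0.5 (11.9% of all genes) and the median of the 28 was -0.56. The mean level of the S phase genes was 10.95, 11.07 and 10.47 in Dnmt3b-KO and 11.01, 11.15 and 11.06 in control. The 38 mitosis and G2/M genes averaged 12.08, 12.07 and 11.42 in Dnmt3b-KO and 12.16, 12.12 and 11.97 in control. In both averages Dnmt3b-KO replicate 3 was the lowest array, and the lowest control was replicate 3 for mitosis and G2/M and replicate 1 for S phase. Of 14 exit genes 0 passed, and at an unadjusted p under 0.05 over 5 arrays 3 were higher (7.74% of all genes). Among them Btg1, an antiproliferative gene, differed by 0.89 ± 0.16 (SE; adjusted p = 0.06) and Cdkn1b, which encodes the inhibitor p27, by 0.30 ± 0.05 (adjusted p = 0.06). Cdkn1a, which encodes the inhibitor p21 and is named here after its values were seen, measured 8.53, 8.38 and 11.66 in Dnmt3b-KO and 8.87, 8.51 and 9.14 in control. The exit genes as a list did not rise on Dnmt3b-KO replicate 3. Their median difference from replicates 1 and 2 was -0.13. By over 0.5, 3 of 14 were lower (11.9% of all genes) and 2 higher (9.03%). Cdkn1b had its lowest value there, 8.29.

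**Figure D5:**
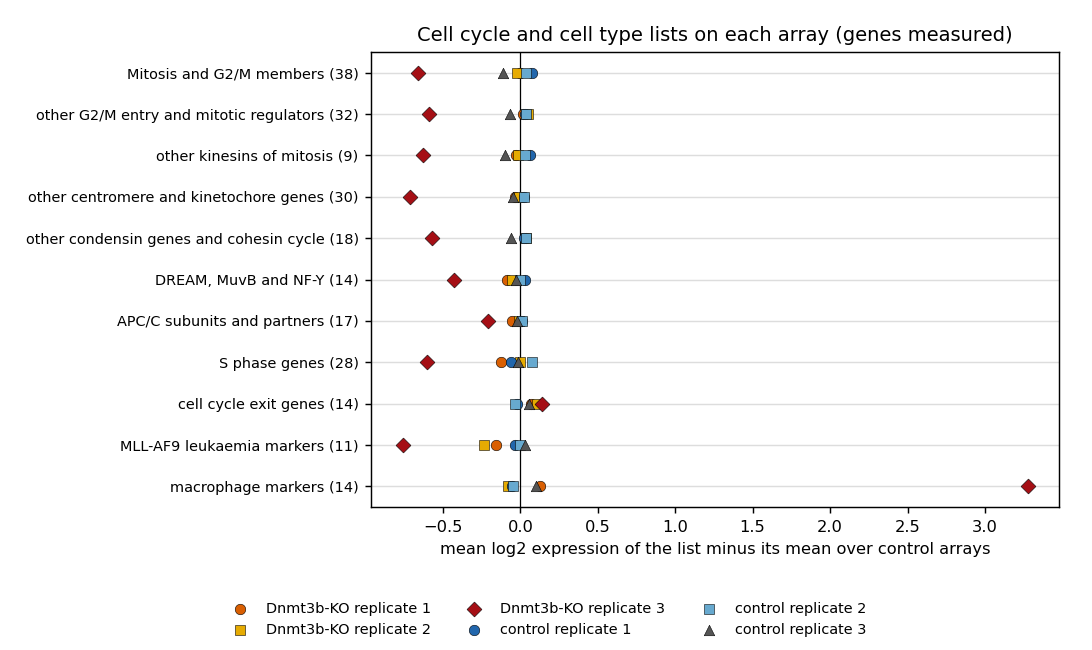
Mean log2 level of the mitosis and G2/M genes, the neighbouring lists, the S phase genes, the exit genes and the marker lists on each array, minus the control mean of the list, in deposited log2 units. Dnmt3b-KO replicate 3 is low for the division lists and high for the macrophage markers.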

How the data were processed

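RNA of sorted cells was measured on 6 arrays (3 Dnmt3b-KO, 3 control). The authors deposited log2 expression values made with RMA according to the submitters' processing notes, which give no version. The highest value is 19.59. Since 16 is the log2 range of the scanner, some unstated step changed the scale, and differences were not turned into folds.

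Of 72688 deposited rows, 30604 had exactly 1 gene symbol in an older probe annotation, 2146 had several and 33206 had none. Symbols of 827 rows were updated through the gene identifier, and each of 30142 genes was represented by its row of highest mean. No low values were filtered out, so all 38 genes were tested. Dnmt3b-KO and control were compared with limma 3.58.1 in R 4.3.3 (lmFit, eBayes, two-sided, Benjamini-Hochberg over all genes, threshold 0.05), over 6 arrays and over 5 without Dnmt3b-KO replicate 3. The fit was tested on simulated data with the spread of the control arrays. A change of 0.5 was recovered in 71% of changed genes over 6 arrays and 54% over 5, with 15 and 5 false calls. The simulation held no deviating array, so it cannot show how the fit copes with Dnmt3b-KO replicate 3. All 40 genes are named. Values on every array are given for genes past the threshold, for the 2 smallest p-values per direction in each fit, for the 3 highest and 3 lowest differences of Dnmt3b-KO replicate 3, for genes that define a role, and for some others added to complete a role. Motifs were searched in RefSeq promoter windows of GRCm38.p6. The members and lists were chosen with earlier results of these data known. Alternatives were array weights, a variance trend with robust fitting, repeated quantile normalization, centring, dim genes removed, rows averaged, no empirical Bayes, other thresholds, a replicate block and leaving out each array.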

Additional observations from a re-analysis of the deposited data

How the results depend on the processing

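Over 6 arrays the number of the 38 genes that passed was 0 to 1 when each array was left out, the 1 being Aurka without Dnmt3b-KO replicate 3, and 0 with the replicate number as a block and under the other alternatives. Over 5 arrays that number of 1 became 0 with the replicate block (limma, adjusted p = 0.13 for Aurka), with a variance trend and robust fit (0.062), with repeated quantile normalization (0.060), with centring (0.059) and without empirical Bayes (0.20), and it was 0 to 0 when each array was left out. Leaving out 1 Dnmt3b-KO array leaves a single one, whose spread is then taken from the control arrays. It stayed 1 with array weights, with genes above the median level, with rows averaged and at an adjusted p under 0.1. The difference of Aurka stayed below 0 throughout, and the cause of the lost calls was not tested. Same-numbered deviations from the group means correlated at 0.13, 0.03 and 0.11. Dnmt3b-KO replicate 3 weighs on all 3 Dnmt3b-KO deviations, so these values cannot show whether same-numbered arrays belong together. The count of 28 genes lower on Dnmt3b-KO replicate 3 was 8 at a size of 1, which is stricter by construction, 33 at a size of 0.3, and 28 or 29 against other sets of arrays, 3 comparisons chosen after seeing the data. The median over 6 arrays, -0.29, was -0.40 without Dnmt3b-KO replicate 1, -0.39 without replicate 2, -0.01 without replicate 3 and -0.04 with array weights, which gave that array a weight of 0.11. Among all genes, the 509 that passed over 5 arrays became 13 to 262 when an array was left out, 96 with the replicate block, 1003 among genes above the median, 1148 at an adjusted p under 0.1 and 0 without empirical Bayes, and the 0 over 6 arrays became 103 with array weights. Among the 38 members, no gene that passed changed sign, and signs of the other genes were not compared.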
